A study of Mus musculus with 16 samples.

Results

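The genes described here set the pace of the G1 phase of the cell cycle: the D cyclins Ccnd1, Ccnd2 and Ccnd3, the E cyclins Ccne1 and Ccne2, their kinases Cdk2, Cdk4 and Cdk6, and the transcription factors E2f1 and E2f2. They were chosen by name, each through the probe set that carries only its symbol, and 9 of the 10 were measured among 30176 genes in all. Ccnd1 is not analysed here, because its probe set names several genes. Each of the 9 had a single probe set. Expression was read on 16 whole-transcript mouse arrays of total RNA from bone marrow cells sorted without treatment, 4 arrays for each of 4 groups: KSL cells (lineage-negative, c-Kit+, Sca-1+, the gate that holds the hematopoietic stem cells) and KL cells (lineage-negative, c-Kit+, Sca-1-, the committed progenitors), each from WT mice or from Camkk2 null mice, which lack the calcium/calmodulin-dependent kinase kinase 2. The marrow of 16 mice of each genotype went into its 4 biological replicates, and the ages of the animals and the part of Camkk2 that is deleted were not given in the sources used here. Values are log2 signals, so a difference of 1 is a doubling. A gene was called when limma gave an adjusted p under 0.05 (Benjamini-Hochberg over all genes) together with a fold of at least 1.5 in either direction. Every difference is the null label minus the WT label unless stated otherwise.

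D cyclins are made in answer to growth factors and pair with CDK4 and CDK6. These kinases begin to phosphorylate the retinoblastoma (pocket) proteins, which hold E2F factors in check. Released E2F factors drive the genes of DNA replication and also Ccne1 and Ccne2, whose proteins pair with CDK2 and complete the phosphorylation, which commits the cell to S phase. Hematopoietic stem cells rest mostly outside the cycle, whereas progenitors divide often.

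Camkk2 itself did not separate the genotype labels. KSL arrays spanned 7.11 to 8.02 with the WT label and 7.14 to 7.93 with the null label, and KL arrays 6.89 to 7.86 and 7.08 to 7.83. Over the 4 groups its mean deviation by replicate number was 0.34, 0.36, -0.47 and -0.23 for numbers 1 to 4 (adjusted p = 3.66e-04, limma F test), so this spread followed the number, as it did at 0.577% of all genes and at none of the 9. By limma the labels differed by -0.13 in the KSL gate (adjusted p = 0.714) and by -0.05 in the KL gate (adjusted p = 0.923). Nor did Camkk2 separate the gate labels: KSL minus KL was 0.13 under the WT label (adjusted p = 0.974 from limma) and 0.04 under the null label (adjusted p = 0.966). Array medians lay between 5.01 and 5.12, and no pair of arrays held identical values. KSL and KL differed at few genes under the same genotype label, whereas many stem cell and lymphoid progenitor markers were lower, and many erythroid and granulocyte and monocyte markers higher, under the null label in both gates. A genotype effect and an exchange of gate labels with genotype labels cannot be told apart from these arrays alone, so every direction below rests on the labels as given. Kit, the c-Kit receptor on which both gates were sorted, was itself called lower under the null label, with means of 10.06 and 9.31 in KSL (-0.75, SE 0.139, adjusted p = 0.00456) and 10.32 and 9.68 in KL (-0.64, SE 0.0665, adjusted p = 1.82e-04), and its part in the results below was not tested. The values for Ly6a (Sca-1) are not analysed here.

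The promoters of 4 of these genes are printed because they show how the genes differ in the letters that E2F factors and E-box factors are known to bind. RefSeq windows of 300 bases (GRCm38.p6, 250 bases before the start site and 50 after) existed for 7 of the 10 genes in 9 windows, and Ccnd1, Ccnd2 and Ccne2 had none. The E2F letters searched were TTTGGCGC, TTTCCCGC, TTTCGCGC and TTTGCCGC, and the E-box was CACGTG, all on both strands. The motifs found are in capitals in these lines, each read 5′ to 3′ on the strand of its gene.
Ccne1 (chr7:38107441-38107740, minus strand, no motif): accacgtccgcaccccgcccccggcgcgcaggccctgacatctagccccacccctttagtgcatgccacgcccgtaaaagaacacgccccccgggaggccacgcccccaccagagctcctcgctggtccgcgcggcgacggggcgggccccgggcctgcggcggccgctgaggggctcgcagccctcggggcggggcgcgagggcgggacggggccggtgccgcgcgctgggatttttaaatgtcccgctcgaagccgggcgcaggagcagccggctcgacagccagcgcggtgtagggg
Cdk2 (chr10:128705002-128705301, minus strand, 1 E2F motif read from the opposite strand): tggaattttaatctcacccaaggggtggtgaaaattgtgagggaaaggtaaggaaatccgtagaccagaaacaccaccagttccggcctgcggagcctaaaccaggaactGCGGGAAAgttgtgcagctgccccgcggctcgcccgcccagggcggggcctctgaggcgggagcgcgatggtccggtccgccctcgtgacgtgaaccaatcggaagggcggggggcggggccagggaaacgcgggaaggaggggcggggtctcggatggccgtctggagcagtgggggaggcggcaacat
Cdk4 (chr10:127063285-127063584, plus strand, 4 E-boxes): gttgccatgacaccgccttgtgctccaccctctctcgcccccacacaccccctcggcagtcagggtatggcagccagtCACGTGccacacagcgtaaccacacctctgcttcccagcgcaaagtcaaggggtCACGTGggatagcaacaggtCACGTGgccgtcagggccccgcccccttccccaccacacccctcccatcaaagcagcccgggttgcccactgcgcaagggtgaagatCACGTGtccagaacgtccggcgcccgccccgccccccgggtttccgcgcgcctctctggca
E2f2 (chr4:136172024-136172323, plus strand, 1 E2F motif): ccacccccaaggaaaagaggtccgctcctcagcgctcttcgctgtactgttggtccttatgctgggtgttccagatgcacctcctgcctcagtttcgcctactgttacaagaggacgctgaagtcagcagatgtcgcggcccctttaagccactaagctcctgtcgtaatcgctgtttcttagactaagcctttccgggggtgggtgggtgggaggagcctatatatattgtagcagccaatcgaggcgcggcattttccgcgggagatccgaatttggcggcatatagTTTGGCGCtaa
The E2F motif of Cdk2 began 140 bases before the start site, and that of E2f2 lay just after its start. E-boxes stood at 4 places before the start site of Cdk4 and at 1 before that of Cdk6. The windows of Ccnd3, E2f1 and Ccne1 and the other window of E2f2 held none of these letters. By the annotated gene ends, the windows of E2f1 and Cdk6, the other window of E2f2 and the later window of Ccnd3 lay inside the gene. For E2f1 and Cdk6 no window at the outer start of the gene was available, so their letters do not describe that start. Over all 32851 such mouse windows, 2.3% held an E2F motif and 7.2% an E-box. A match describes the letters only.

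In KSL cells, Ccne1 was far higher and Ccnd2 lower under the null label, and these were the 2 genes called. That was 1 of 9 higher and 1 of 9 lower, against 1.31% of all genes called higher and 3.7% called lower. With the fold left aside, 3 of the 9 were higher and 4 lower at an adjusted p under 0.05, where the shares over all genes were 8.5% and 10.5%. The values of the labels did not overlap on any array for 8 of the 9 genes, E2f1 being the exception, compared with 26.7% of all genes. The median difference of the 9 was -0.15, and that of all genes was 0.05.

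**Figure D1:**
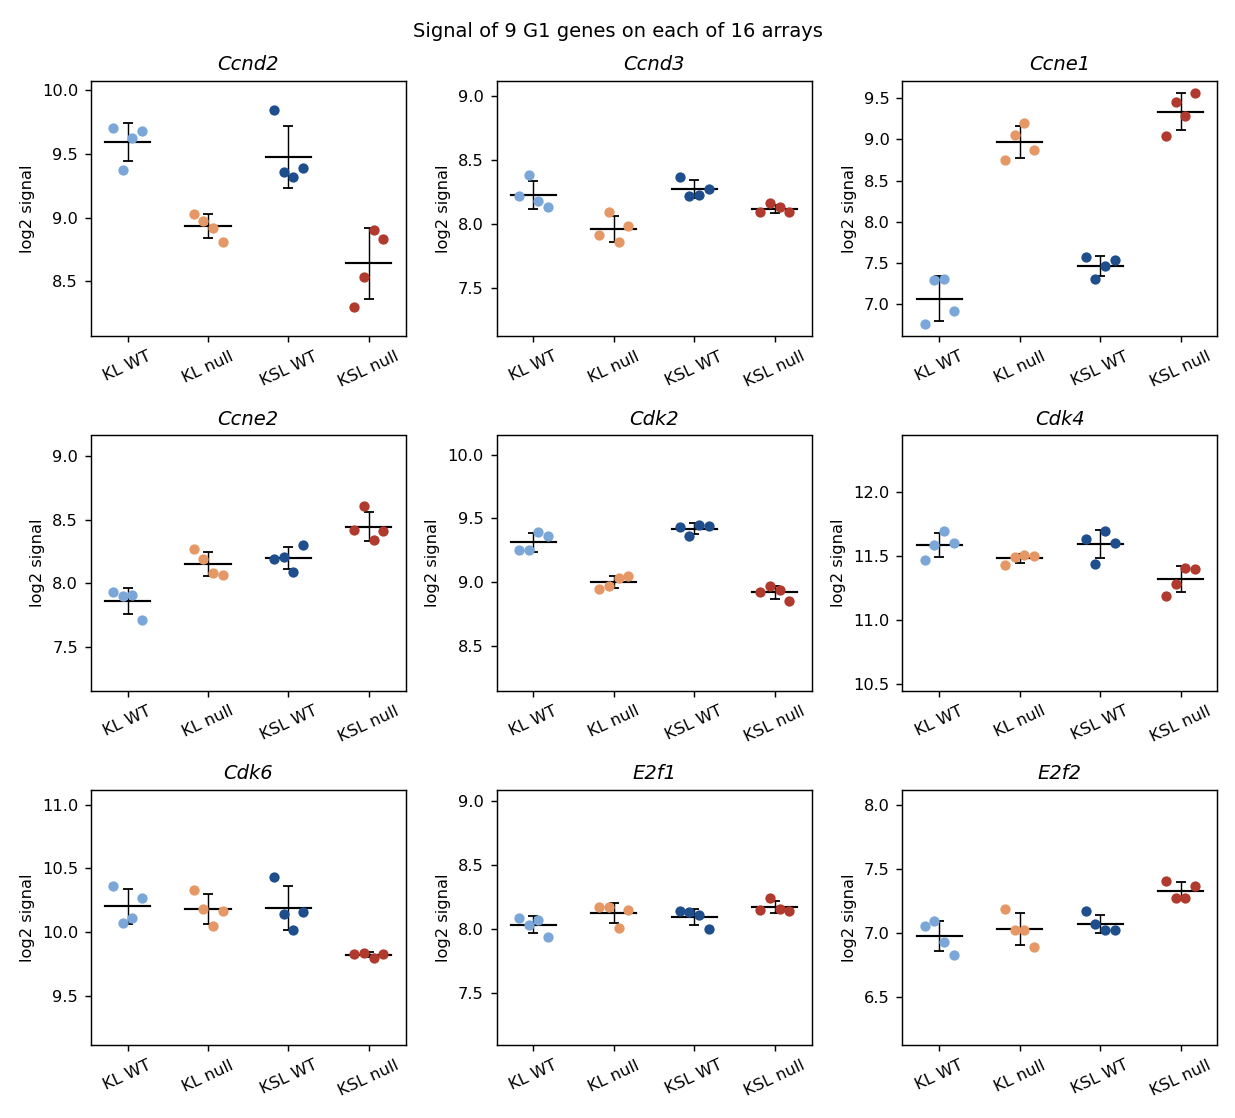
Log2 signal (y axis) of the 9 measured genes, 1 panel per gene, on each of the 16 arrays, with the 4 groups on the x axis, a bar at each group mean and whiskers of 1 SD (n = 4 arrays). Ccne1 lies at 7.57 or below on all arrays labelled WT and at 8.75 or above on all labelled null, while E2f1 stays between 7.94 and 8.24.

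Among the D cyclins, Ccnd2 carried the larger difference. Ccnd2, the cyclin D2 of many blood cells, read 9.84, 9.36, 9.32 and 9.39 under the WT label in KSL and 8.30, 8.53, 8.90 and 8.83 under the null label. The lowest WT array was above the highest null array, and replicate 1 stood at the outer end of both groups. The fitted difference was -0.84 (SE 0.151, 95% confidence interval -1.18 to -0.50, adjusted p = 0.00381 from limma), which is 1.79-fold lower. In KL it read 9.70, 9.37, 9.62 and 9.68 under WT and, under null, 9.03, 8.97, 8.92 and 8.81. Again no null array reached the WT arrays, and the null replicates were closer together than in KSL. The KL difference was -0.66 (SE 0.0804, interval -0.84 to -0.48, adjusted p = 4.68e-04), or 1.58-fold lower.

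Ccnd3, cyclin D3, was lower under the null label by much less. It read 8.37, 8.22, 8.23 and 8.27 in KSL under the WT label and 8.09, 8.16, 8.13 and 8.09 in KSL under the null label. The groups touched nowhere, but the difference of -0.15 (SE 0.0503, adjusted p = 0.0585) missed the threshold. In KL it read 8.22, 8.38, 8.18 and 8.13 against 7.91, 8.09, 7.86 and 7.98, a difference of -0.27 (SE 0.0689, adjusted p = 0.0254) that stayed under the fold minimum. This KL value rested on few arrays: its adjusted p ran from 0.0199 to 0.0759 when 1 array was left out, and was 0.05 or more without WT replicate 2 or null replicate 1, 3 or 4.

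The E cyclins were higher under the null label, Ccne1 by far the more so. Ccne1, cyclin E1, the activator of CDK2 at the G1/S step, read 7.57, 7.30, 7.46 and 7.53 in KSL under the WT label and 9.04, 9.46, 9.29 and 9.56 in KSL under the null label. Even the lowest null array was well above every WT array. The difference was 1.87 (SE 0.11, interval 1.62 to 2.12, adjusted p = 4.04e-06 from limma), a 3.65-fold rise. In KL the values were 6.76, 7.29, 7.30 and 6.92 under WT and 8.75, 9.05, 9.20 and 8.87 under null. The gap between the labels was again wider than the whole spread of either group, and the difference was 1.90 (SE 0.138, interval 1.59 to 2.21, adjusted p = 2.63e-05), or 3.73-fold. The study singled out Ccne1 on the KSL arrays, so its direction there is not independent evidence.

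Ccne2, cyclin E2, shares the kinase partner of Ccne1 but differed little between the labels. It read 8.19, 8.21, 8.09 and 8.30 in KSL under the WT label and 8.42, 8.61, 8.34 and 8.41 in KSL under the null label, a difference of 0.25 (SE 0.0697, adjusted p = 0.0359). The groups lay side by side with little space between them. That adjusted p ran from 0.0358 to 0.0813 when 1 array was left out and stayed under 0.05 only without WT replicate 4 or null replicate 3. With the arrays centred on their medians the KSL difference was 0.23 (adjusted p = 0.0709 from limma). After quantile normalization it was 0.31 (adjusted p = 0.00881), so it depended on the normalization. In KL it read 7.93, 7.90, 7.91 and 7.71 against 8.27, 8.19, 8.08 and 8.07, a difference of 0.29 (SE 0.0673, adjusted p = 0.0156). Both differences were below the fold minimum, and the confidence intervals of the E cyclins did not touch in either gate (0.09 to 0.40 for Ccne2 in KSL, 0.14 to 0.44 in KL).

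**Figure D2:**
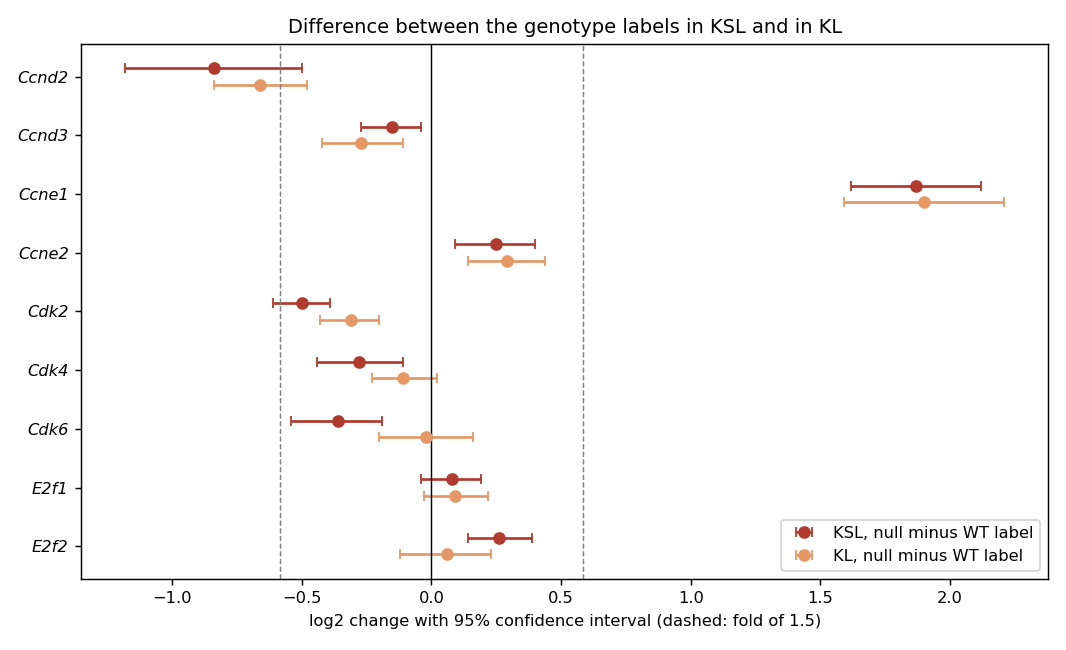
Difference in log2 signal between the null and the WT label (x axis) for each of the 9 genes (y axis) in KSL and in KL, with 95% confidence intervals from limma and dashed lines at a fold of 1.5. Ccne1 lies at 1.87 and 1.90 and Ccnd2 at -0.84 and -0.66, and every other point lies between the dashed lines.

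All 3 kinases were lower in KSL under the null label, each by less than the fold minimum. Cdk2, the partner of the E cyclins, read 9.43, 9.36, 9.45 and 9.44 under WT and 8.92, 8.97, 8.94 and 8.85 under null. Its replicates were among the tightest of the set, and the difference was -0.50 (SE 0.0478, interval -0.61 to -0.39, adjusted p = 7.98e-05 from limma). In KL Cdk2 read 9.25, 9.25, 9.39 and 9.36 against 8.95, 8.97, 9.03 and 9.05, a difference of -0.31 (SE 0.0517, interval -0.43 to -0.20, adjusted p = 0.00256). Cdk2 and Ccne1, whose proteins form 1 complex, thus differed between the labels in opposite directions in both gates.

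Cdk6, the D cyclin kinase that is prominent in blood progenitors, separated the labels in KSL but not in KL. It read 10.43, 10.14, 10.02 and 10.16 in KSL under the WT label and 9.83, 9.84, 9.80 and 9.83 in KSL under the null label. The null arrays lay almost on 1 level, whereas the WT arrays spanned 0.41. The difference was -0.36 (SE 0.079, interval -0.54 to -0.19, adjusted p = 0.0106 from limma). It depended on the normalization, with -0.26 after quantile normalization (adjusted p = 0.104) and -0.38 after median centring (adjusted p = 0.0232). In KL Cdk6 read 10.36, 10.07, 10.11 and 10.27 under WT and 10.33, 10.18, 10.05 and 10.17 under null. These groups overlapped, with a difference of -0.02 (interval -0.20 to 0.16, adjusted p = 0.895).

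Cdk4, the other partner of the D cyclins, followed the same order with a smaller step. It read 11.63, 11.44, 11.70 and 11.60 in KSL under the WT label and 11.19, 11.28, 11.41 and 11.40 in KSL under the null label. The closest arrays of the labels were almost level. The difference of -0.28 (SE 0.0722, adjusted p = 0.0256 from limma) became -0.10 (adjusted p = 0.273) after quantile normalization and -0.29 (adjusted p = 0.0301) after median centring. Its adjusted p rose to as much as 0.0691 when 1 array was left out, with 0.05 or more without WT replicate 1, 3 or 4 or null replicate 1 or 2. In KL it read 11.47, 11.59, 11.70 and 11.60 against 11.43, 11.49, 11.51 and 11.50, which overlapped (-0.11, interval -0.23 to 0.02, adjusted p = 0.238).

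Neither E2F factor was called in either gate. E2f1, the activator E2F that the retinoblastoma protein restrains, read 8.14, 8.13, 8.11 and 8.0 in KSL under the WT label and 8.15, 8.24, 8.16 and 8.14 in KSL under the null label. The groups overlapped, and the difference was 0.08 (interval -0.04 to 0.19, adjusted p = 0.297 from limma). In KL it read 8.09, 8.03, 8.07 and 7.94 against 8.17, 8.17, 8.01 and 8.15, a difference of 0.09 (interval -0.03 to 0.22, adjusted p = 0.324). Both intervals leave no room for a change of the fold minimum.

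E2f2, a second activator E2F, read 7.17, 7.07, 7.02 and 7.02 in KSL under the WT label and 7.41, 7.27, 7.27 and 7.37 in KSL under the null label. All null arrays were higher, by 0.26 (SE 0.057, interval 0.14 to 0.39, adjusted p = 0.0104), under the fold minimum. In KL it read 7.05, 7.09, 6.93 and 6.83 against 7.19, 7.02, 7.02 and 6.89. These groups overlapped, with a difference of 0.06 (interval -0.12 to 0.23, adjusted p = 0.677).

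The KL arrays gave the same 2 called genes. In KL 1 of the 9 genes was called higher and 1 lower, where 1.28% and 2.72% of all genes were called, and without the fold minimum 2 were higher and 3 lower, where the shares of all genes were 7.13% and 8.69%. The labels did not overlap for 5 of the 9, namely Ccnd2, Ccnd3, Ccne1, Ccne2 and Cdk2, compared with 20.9% of all genes. The KL and KSL comparisons share no arrays. Whether KSL and KL cells of a genotype came from the same mice was not given, so the 2 comparisons may not be independent.

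Whether the difference between the labels itself differed between the gates was tested on all 16 arrays. No gene of the 9 was called in either direction, nor was any other gene (0% of all genes). At the looser threshold of an unadjusted p under 0.05, 2 of the 9 passed, Cdk6 and Cdk2. The share of all genes at that looser threshold was not counted. Cdk6 had the widest gap between the gates, -0.34 (KSL minus KL, interval -0.59 to -0.09, adjusted p = 0.654 from limma). For Cdk2 it was -0.19 (interval -0.32 to -0.05, adjusted p = 0.663). For Ccne1 the estimate was -0.03, with an interval of -0.44 to 0.37 (adjusted p = 0.981). The larger steps of Cdk2, Cdk4, Cdk6 and E2f2 in KSL than in KL are therefore not shown to differ.

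Between the gates under the WT label, the E cyclins had the largest differences of the 9, both higher in KSL, and under neither label was any of the 9 called. Under the WT label 0.00994% of all genes were called higher in KSL and 0.0729% lower, and under the null label 0.0365% and 0.229%. Ccne2 was 0.33 higher in KSL under WT (SE 0.0696, interval 0.19 to 0.48, adjusted p = 0.0975 from limma), and Ccne1 0.40 higher (SE 0.135, adjusted p = 0.386). No KL array of either gene reached the KSL arrays under WT, though the closest Ccne1 arrays read 7.30 in both gates. These 2 genes were the 2 of 9 without overlap, compared with 3.33% of all genes. Under the null label Ccne1 was 0.37 higher in KSL (adjusted p = 0.242) and Ccne2 0.29 higher (adjusted p = 0.0631). There, E2f2 was 0.30 higher (SE 0.0694, adjusted p = 0.0519) and Cdk6 0.35 lower on the KSL side (-0.35, SE 0.0831, adjusted p = 0.0543). Under null the gates did not overlap for Ccnd3, Ccne2, Cdk4, Cdk6 and E2f2, 5 of 9 compared with 8.9% of all genes. An unadjusted p under 0.05 was reached by 3 of the 9 under WT and by 7 under null. The share of all genes at that threshold was not counted, so nothing is concluded from these counts. Both comparisons reuse arrays of the comparisons between labels, so the estimates are not independent of them.

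The other genes of the G1/S step give the setting of these differences. Of 66 such genes listed by role, 61 were measured, of which 5 were called higher and 2 lower in KSL, with a median of 0.08 against 0.05 for all genes, and 4 higher and 1 lower in KL, with a median of 0.08 against 0.03. The shares of all genes called were those given above, 1.31% higher and 3.7% lower in KSL and 1.28% and 2.72% in KL, so the count called lower in KSL was near that of all genes. E2f4, an E2F that mainly represses with the pocket proteins, rose in both gates. Its mean was 8.73 ± 0.134 (SD, n = 4) in KSL under the WT label and 9.75 ± 0.0634 in KSL under the null label, a rise of 1.02 (SE 0.0712, adjusted p = 1.19e-05 from limma), and it rose by 1.03 in KL (SE 0.129, adjusted p = 5.35e-04). E2f8, a repressor that works without a dimerization partner, rose in KL by 0.69 (SE 0.0741, adjusted p = 2.16e-04) and differed by 0.36 in KSL. The other 6 of the 8 E2F and DP factors were called in neither gate.

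Pocket proteins and CDK inhibitors hold the G1 kinases and E2Fs back. The pocket proteins differed in both directions, while every CDK inhibitor that passed an adjusted p under 0.05 was lower. Of 3 pocket proteins in KSL, Rb1 rose by 0.62 (SE 0.116, adjusted p = 0.0045) and Rbl2 fell by 0.59 (SE 0.0926, adjusted p = 0.00168), with -0.24 for Rbl1. In KL Rb1 was at 0.42 and Rbl2 at -0.42, neither called. Of 7 CDK inhibitors, Cdkn1a, which encodes p21, was the only one called, and it fell in both gates, by 0.68 in KSL (SE 0.125, adjusted p = 0.0043) and by 0.68 in KL (SE 0.165, adjusted p = 0.0189). Cdkn1b, which encodes p27, differed by -0.50 (adjusted p = 0.00316 from limma) and -0.42 (adjusted p = 2.68e-04), below the fold minimum. Without the fold minimum 3 of the 7 inhibitors were lower and none higher in KSL, where 10.5% and 8.5% of all genes passed. In KL 4 were lower and none higher, where 8.69% and 7.13% passed. The calls of Rb1, Rbl2 and Cdkn1a hung on single arrays. Rb1 ran from 0.52 to 0.70 in KSL when 1 array was left out and was no longer called without WT replicate 4 or null replicate 2. Rbl2 ran from -0.67 to -0.50 and was lost without replicate 1 of either label and after quantile normalization (-0.53). Cdkn1a ran from -0.80 to -0.58 in KSL, lost without null replicate 1, and from -0.82 to -0.54 in KL, lost without WT replicate 2 or 3 or null replicate 3 or 4.

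Most E2F target genes of S phase entry were not called. Of 27 measured, 3 rose and none fell in KSL (median 0.11, all genes 0.05), and 2 rose and none fell in KL (median 0.20, all genes 0.03), which left 24 and 25 not called. Of all genes, 1.31% were called higher and 3.7% lower in KSL, and 1.28% and 2.72% in KL. Without the fold minimum 11 were higher and 1, Pcna, lower in KSL, where 8.5% and 10.5% of all genes passed, and 12 were higher and none lower in KL, where 7.13% and 8.69% passed. Cdc6, which loads the replicative helicase, rose by 0.92 in KSL (SE 0.0871, adjusted p = 7.49e-05) and by 0.91 in KL (SE 0.0574, adjusted p = 1.15e-05). Rrm2, the regulated subunit of ribonucleotide reductase, rose by 0.73 and 0.79. Rrm1, the large subunit, rose by 0.59 in KSL only just past the fold minimum, ran from 0.53 to 0.70 and was no longer called without WT replicate 2, 3 or 4 or null replicate 1, 2 or 4. Of the 4 measured A and B cyclins and Cdk1 none was called, and Ccna2, cyclin A2, was 0.37 higher in KSL (adjusted p = 0.0023) and 0.42 in KL (adjusted p = 0.00782). Cdc6, Rrm2 and Ccna2 were also singled out by the study on the KSL arrays and are no independent evidence of direction there. Of 12 CDK activators and ubiquitin ligase parts, 2 were higher and 3 lower in KSL and 3 higher and 2 lower in KL at an adjusted p under 0.05, all under the fold minimum, where 8.5% and 10.5% of all genes passed in KSL and 7.13% and 8.69% in KL.

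**Figure D3:**
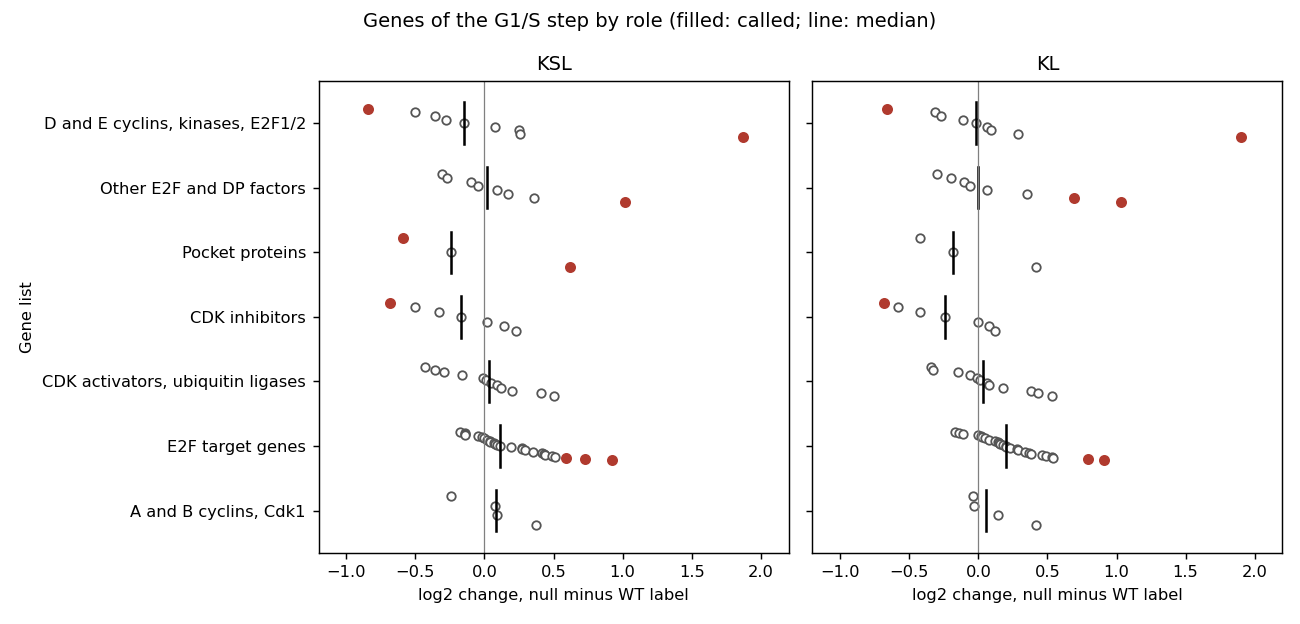
Difference in log2 signal between the null and the WT label (x axis) for the genes of the G1/S step, 1 circle per gene, by list (y axis), in KSL and in KL, with filled circles for called genes and a line at each list's median. The list medians lie between -0.24 and 0.20 in both gates, and Ccne1 at 1.87 and 1.90 is the farthest point of all lists.

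Markers of other cell types differed between the same groups. In bulk samples, fewer cells of a type and less RNA per cell cannot be told apart. Of 14 measured erythroid genes, 12 were called higher under the null label in each gate, against 1.31% of all genes in KSL and 1.28% in KL. Their mean log2 signal per array ran from 7.27 to 7.48 in KSL under the WT label and from 9.17 to 9.39 in KSL under the null label, and from 6.90 to 7.19 and 8.71 to 9.15 in KL. Slc4a1 and Alas2, of later red cell stages, were the 2 not called. Granulocyte and monocyte genes rose in 9 and fell in 2 of 12 in KSL, with means of 8.90 to 9.21 under WT and 9.90 to 10.29 under null. In KL they rose in 8 and fell in 2 of 12, with means of 8.44 to 8.90 and 9.74 to 10.43. Lymphoid progenitor genes fell in 7 of 8 in each gate, with means of 7.89 to 8.11 and 5.83 to 5.92 in KSL, and stem cell genes fell in 6 of 12 in KSL and 7 of 12 in KL. Of all genes, 3.7% were called lower in KSL and 2.72% in KL. The 5 mature B cell genes stayed between 5.59 and 5.80 on average in every group. Among them Cd79b differed by -0.52 in KSL (adjusted p = 0.00171 from limma) and by -0.51 in KL (adjusted p = 0.0108), under the fold minimum. Called lower were 2 of 6 macrophage genes in KSL and 1 in KL, and 2 of 7 T and NK cell genes in KSL and 1 in KL. Of 7 mast cell and basophil genes, none was called in KSL and 3 were called higher in KL. None of 6 megakaryocyte genes was called in either gate. Without the fold minimum 2 of these 6 were lower in KSL and 1 higher in KL, where 10.5% and 7.13% of all genes passed. Among 6 endothelial and stromal genes, 1 was called lower in KSL and none in KL. The part of these cell types in the differences of Ccne1, Ccnd2 and the others was not tested.

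**Figure D4:**
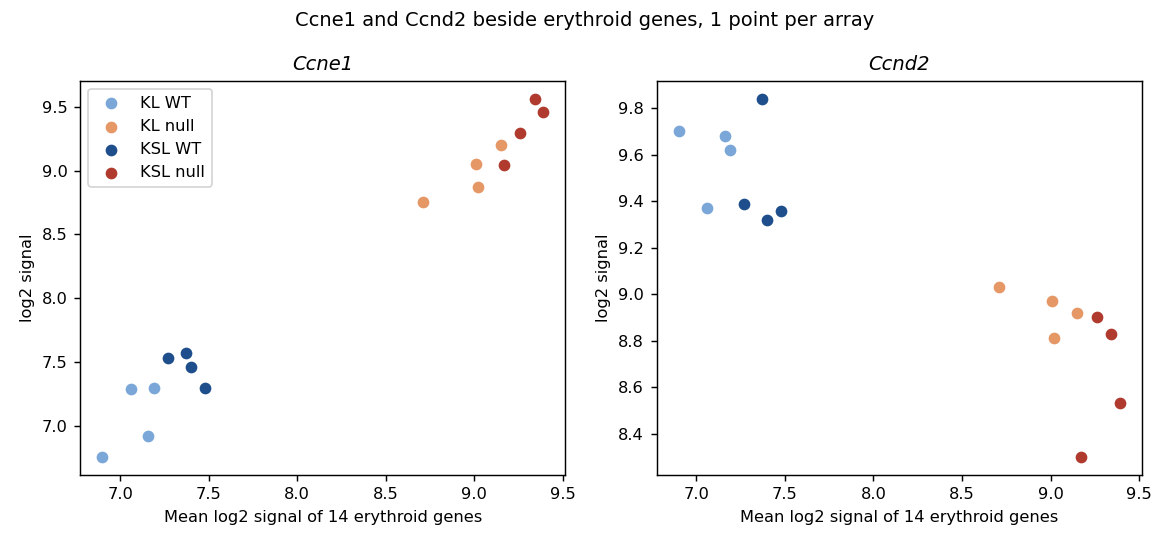
Log2 signal of Ccne1 and of Ccnd2 (y axes) against the mean log2 signal of 14 erythroid genes (x axis), 1 point per array, coloured by group. Arrays labelled WT lie at 7.48 or below on the x axis and those labelled null at 8.71 or above, so the arrays form separate clusters and no correlation is given over both.

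Across the 16 arrays, the genes whose pattern was most like each of the 9 were found by Pearson's r, as a description over arrays that fall into clusters by label. Ccne1 was most like Cpox, an enzyme of heme synthesis (r = 0.991), and Nxpe2 (0.989). Ccnd2 was most like Inpp5d, the lipid phosphatase SHIP1 of blood cells (0.975), and Abhd2 (0.975). Ccne2 and E2f2 had Esco2, the cohesin acetyltransferase of S phase, as the gene most like them (0.915 and 0.875), followed by Sgo1 (0.908), a protector of cohesin, and Ccdc71l (0.862). Cdk2 was closest to Pimreg (0.973) and Neurl1b (0.966), Cdk4 to Dynlrb1 (0.975), a dynein light chain, and Tagln2 (0.96). Cdk6 was closest to Igf1r, the receptor of insulin-like growth factor 1 (0.923), and Man2b1 (0.886), and Ccnd3 to Peli2 (0.895) and Irf9 (0.884). E2f1 had the loosest neighbours, Usp31 (0.866) and Pigg (0.84). Among the 9 genes themselves, Ccnd2 correlated with Cdk2 (0.839) and Cdk4 (0.806) and inversely with Ccne1 (-0.875), and Cdk2 also inversely with Ccne1 (-0.899).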

How the data were processed

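RNA of 16 samples was hybridised to whole-transcript mouse arrays. The authors deposited log2 signals made with RMA in Partek 6.6, in 1 table whose columns carry the sample names. The RMA options and the scan batches were not given in the sources used here. Of 72688 features, 30638 probe sets named 1 gene by the platform annotation. The brightest on average was kept for 354 genes with more than 1, which left 30176 genes, and 2176 probe sets that name several genes were left out, Ccnd1 among them. Groups came from the sample titles. The number of arrays limits the precision, and since nothing says how the 16 mice were pooled, p values measure the spread between these arrays only. The KSL and KL comparisons were each fitted in limma 3.58.1 (R 4.3.3, moderated two-sided tests by lmFit and eBayes) on their own 8 arrays, and the others on all 16, with Benjamini-Hochberg adjustment over all genes. The fits were tested on simulated data. Named were all members, the 2 genes most like each, and in each pathway list the called gene with the largest change in each direction in KSL. E2f8, Rrm1, Rrm2, Cdkn1b, Rbl1, Ccna2, Pcna, Slc4a1, Alas2 and Cd79b were named after their values were seen. The members and lists were chosen with earlier results of these data known. Alternatives were quantile normalization, median centring, the mean of a gene's probe sets, only genes above the median level, a trended and robust eBayes, array weights, 1 fit on all arrays, other fold minimums, the methods' t-test, a replicate block and leaving out each array. Promoter windows are from RefSeq (GRCm38.p6), matched by symbol.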

Additional observations from a re-analysis of the deposited data

Results flagged for a closer look

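Of the 36 groups of 4 arrays (9 genes in 4 groups), 4 had 1 array that stood apart from the other 3 by more than Dixon's 95% limit, and chance marks about 1 in 20 groups. Ccnd2 read 9.84 in KSL labelled WT replicate 1, where the others read 9.32 to 9.39 (gap over range 0.879), and without that array the KSL difference stayed called. Ccne2 read 7.71 in KL labelled WT replicate 4, against 7.90 to 7.93 in the others (0.877). Cdk6 read 9.80 in KSL under the null label replicate 3, against 9.83 to 9.84 (0.877), a gap that is small in itself. E2f1 read 8.01 in KL labelled null replicate 3, against 8.15 to 8.17 (0.881).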

How the results depend on the processing

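Ccne1 and Ccnd2 stayed called in KSL and in KL when any 1 array was left out. Ccne1 then ran from 1.80 to 1.97 in KSL and from 1.80 to 1.98 in KL, and Ccnd2 from -0.92 to -0.72 and from -0.73 to -0.62. Of the 9 genes, 7 (3 higher, 4 lower) passed in KSL and 5 (2 higher, 3 lower) in KL without a fold minimum, and 1, Ccne1, passed in each at a fold of at least 2. At that fold, 131 of all 30176 genes were higher and 354 lower in KSL, and 129 and 277 in KL. The methods' t-test, with no fold minimum, passed 8 in KSL and 5 in KL at an unadjusted p under 0.05, and 6 in KSL and 3 in KL after Benjamini-Hochberg adjustment. Of all 30176 genes, the unadjusted t-test passed 6130 higher and 4150 lower in KSL, and 4371 and 3674 in KL. After adjustment it passed 2197 higher and 2391 lower in KSL, and 1503 and 1848 in KL. The other G1/S genes called numbered 4 to 7 in KSL when 1 array was left out, with 4 without null replicate 1 (4 higher, none lower), and 4 to 7 in KL. No called value changed sign under these alternatives. Values near 0 that were not called did so: with 1 array left out Cdk6 in KL ran from -0.07 to 0.03, the gate difference from -0.11 to 0.07 for Ccne1, from -0.10 to 0.01 for Ccne2 and from -0.05 to 0.02 for E2f1, and KSL minus KL under the WT label from -0.04 to 0.05 for Cdk4 and from -0.09 to 0.04 for Cdk6. After quantile normalization Cdk2 in KSL minus KL under the null label was 0.03. With the replicate number as a block, 2 of the 9 genes were called in KSL, 2 in KL and 0 in the other comparisons, and 7 and 5 of the other G1/S genes, so the block changed none of these counts. The labels do not say what a replicate number marks, and 174 genes, Camkk2 among them and none of the 9, differed by it at an adjusted p under 0.05. The main fits did not pair arrays by number. Deviations from the group means of WT and null arrays of the same number correlated at -0.00629, 0.0977, 0.159 and 0.123 in KSL for numbers 1 to 4. The highest correlation with another number was 0.0702, 0.235, 0.115 and 0.0909. In KL these were 0.137, 0.0402, 0.243 and -0.0147 against 0.0564, 0.126, -0.0373 and 0.12. Between KSL and KL arrays labelled WT, the same number gave 0.172, 0.0328, 0.0307 and 0.224 against 0.0378, 0.246, 0.126 and 0.211. Between those labelled null it gave 0.107, 0.146, 0.0522 and 0.0337 against 0.0619, 0.0967, 0.0835 and 0.166. The same number was thus the closer for some numbers only. The number of arrays and the signal range limit small differences, so steps such as those of E2f1 and Cdk4 in KL were not detectable here.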
